A study of Mus musculus with 8 samples.

Results

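The comparison set CLIP libraries made with monoclonal antibodies against LIN28A beside a CLIP library made with a polyclonal antibody against the same protein, in mouse embryonic stem cells. It covered every transcript of the CLIP table with at least 50 exon counts summed over the 3 libraries, which kept 7808 of 7820 transcripts. The libraries are 3 of the 8 in the series. The others hold poly(A) RNA and ribosome footprints and were not used here. CLIP crosslinks RNA to a protein with ultraviolet light, immunoprecipitates the protein and sequences the RNA that comes with it.

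The groups were LIN28A CLIP with monoclonal antibodies (1 library with 35L33G and 1 with 2J3, both made in-house per the labels) and LIN28A CLIP with a polyclonal antibody (1 library, a commercial Abcam product). All came from the A3-1 cell line, grown with serum and LIF, and none had an siRNA. The labels do not say that the libraries came from separate cultures, so p-values reflect only how far these libraries spread, and part of that may be technical. Antibody and library cannot be told apart, because each antibody has a single library. No CLIP with an unrelated antibody was analysed here.

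LIN28A binds RNA and is abundant in pluripotent cells. Its cold shock domain and its zinc knuckles grip the terminal loop of let-7 precursors, where the zinc knuckles recognise a GGAG motif, and it also binds many mRNAs. A monoclonal antibody reads a single epitope, whereas a polyclonal preparation reads several.

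The precursors that LIN28A is best known to bind are shown first, because the antibodies could be compared on them directly, followed by Mir677, a microRNA precursor on which the antibodies differed. The RefSeq hairpins (GRCm38.p6) are written 5′ to 3′, with GGAG in capitals for the let-7 members and UGAUGA, the core of the C box of C/D box snoRNAs, in capitals for Mir677.
Mirlet7f-1: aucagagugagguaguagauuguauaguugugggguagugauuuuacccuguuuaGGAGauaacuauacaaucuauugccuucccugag
Mirlet7d: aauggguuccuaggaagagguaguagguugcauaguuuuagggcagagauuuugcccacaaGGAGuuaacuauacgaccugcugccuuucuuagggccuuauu
Mirlet7g: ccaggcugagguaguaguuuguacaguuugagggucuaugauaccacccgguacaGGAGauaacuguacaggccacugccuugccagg
Mir677: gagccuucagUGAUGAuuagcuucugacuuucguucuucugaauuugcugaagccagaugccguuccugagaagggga

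The mature 5p products show how the families differ, with the seed (bases 2 to 8) in capitals. The 3 let-7 members share the seed GAGGUAG, and Mir677 has another.
let-7f: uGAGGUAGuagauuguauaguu
let-7d: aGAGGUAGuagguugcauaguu
let-7g: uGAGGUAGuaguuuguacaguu
miR-677: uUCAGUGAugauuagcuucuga
Of 1005 mouse hairpins in the table, 44.5% hold GGAG on the transcribed strand and 61.0% on either strand, and UGAUGA is in 2.69% and 3.58%. The 2 motifs share no position. A match describes letters and shows no binding site.

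Depth was close in the 3 libraries, with 7698479 exon counts for 35L33G, 7849235 for 2J3 and 8027670 for the polyclonal library. Of the markers fixed for embryonic stem cells, all 9 were in the table. Of 8 fibroblast markers 2 were (Thy1 and Vim), and of 9 differentiation markers 2 (Otx2 and Tubb3). None of these was called between antibodies, where 0.538% of all transcripts were called. The embryonic stem cell markers had a median log2 ratio of monoclonal over polyclonal of 0.03. The pairs of other markers had ratios of 0.60 for Thy1, 0.06 for Vim, -0.60 for Otx2 and -0.65 for Tubb3. Otx2, a transcription factor of early differentiation, had 451 counts with 35L33G and 358 with 2J3, against 630 with the polyclonal antibody (edgeR adjusted p = 0.479). Sox2 had 8830 counts with 35L33G and 8630 with 2J3, against 9669 with the polyclonal antibody. Just inside the threshold were Pdxp with 28, 12 and 10 counts and Polm with 25, 10 and 17 (35L33G, 2J3 and polyclonal). Just outside it were Hspb8 with 18, 9 and 18 counts and Ntrk2 with 21, 5 and 22.

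Over mRNAs the ratio of monoclonal to polyclonal centred on 0. The scaling of the libraries largely sets this, because 7721 of the 7808 transcripts were coding. All ratios are therefore relative to the bulk of mRNAs. Single transcripts spread more than counting error alone gives. The calls lay mostly among small non-coding RNAs, above all snoRNAs. Some longer non-coding RNAs were called higher too, and not every small RNA was. Box C/D snoRNAs, the H/ACA snoRNA Snora64, the U11 spliceosomal RNA, the RNase MRP RNA and 2 microRNA precursors were higher in the monoclonal libraries, the C/D box snoRNAs by a median of 1.52 on the log2 scale. No precursor of let-7 was called, and the lists with at least 9 mRNAs had medians from -0.06 to 0.15. By edgeR's quasi-likelihood test (adjusted by Benjamini-Hochberg, threshold 0.05), 42 transcripts (0.538% of those tested) were called, 35 higher in the monoclonal libraries (0.448%) and 7 lower (0.0897%). Of the 35, 31 were non-coding, although only 87 of the 7808 transcripts were, and 4 of 7721 coding transcripts were called higher. At an unadjusted p under 0.05 there were 484 (6.2%). By size alone, 63 transcripts (0.807%) were at least 2-fold higher in both monoclonal libraries and 11 (0.141%) at least 2-fold lower. Here the spread comes from the 2 monoclonal libraries, moderated across transcripts, and the single polyclonal library is assumed to vary like them. DESeq2 called 15 higher and 1 lower, and edgeR called 21 higher and 1 lower among transcripts with at least 200 summed counts. All 16 DESeq2 calls were edgeR calls too: 11 C/D box snoRNAs, Snora64, Mir1944, LOC100303645 and 1810058I24Rik higher, and Gm5801 lower.

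**Figure D1:**
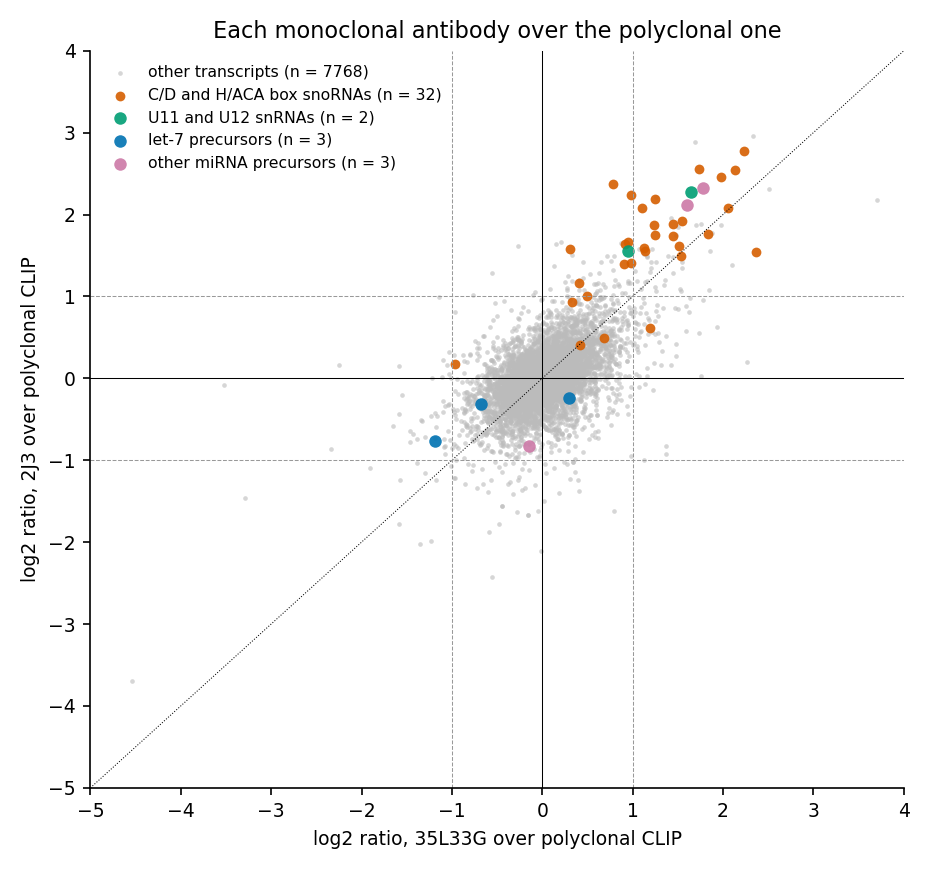
Log2 ratio of each monoclonal library over the polyclonal one, 35L33G on the x axis and 2J3 on the y axis, with 1 point per transcript and dashed lines at 2-fold; 3 transcripts lie outside the range. The snoRNAs sit in the upper right, 2J3 mostly above the dotted line of equal ratios, while the 3 let-7 precursors sit below 0 for 2J3.

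Box C/D snoRNAs guide ribose methylation of ribosomal and spliceosomal RNAs in the nucleolus, with fibrillarin as the methyltransferase, and most are cut out of introns of other transcripts. The table held 31 of them, and 21 were called higher in the monoclonal libraries, none lower. Over all transcripts 0.448% were called higher and 0.0897% lower. Their median fitted log2 ratio was 1.52, against 0.00 over all transcripts, and both monoclonal libraries lay above the polyclonal one for 30 of 31, against 33.8% of all transcripts, and below it for none, against 33.4%. Both lay at least 2-fold above it for 17, against 0.807% of all transcripts. Together they took 0.116% of exon counts with 35L33G and 0.162% with 2J3, against 0.0543% with the polyclonal antibody, from 8945, 12726 and 4362 counts.

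Snord49b had the highest ratio, with 316 counts with 35L33G and 469 with 2J3, against 69 with the polyclonal antibody (log2 2.54 ± 0.33 SE, edgeR adjusted p = 1.64e-11). It lies at 62416588 to 62416650 on chromosome 11 (mm9), within the non-coding transcript 2410006H16Rik, which also holds Snord49a. Snord49a had 930 and 901 counts in the monoclonal libraries, against 269 in the polyclonal one (log2 1.80 ± 0.21, edgeR adjusted p = 2.91e-14). For both, the monoclonal libraries stood clear of the polyclonal one and, for Snord49a, lay within counting error of each other.

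Snord12 had 347 and 488 counts, against 90 in the polyclonal library (log2 2.24 ± 0.31, edgeR adjusted p = 6.58e-10). Snord52 had 291 and 521 counts, against 90 (log2 2.20 ± 0.31, edgeR adjusted p = 1.97e-09). Snord15a had 288 and 297 counts, against 71 (log2 2.07 ± 0.36, edgeR adjusted p = 3.89e-06). In each case, the lower monoclonal library had over 3 times the polyclonal count.

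Snord83b had 311 and 605 counts, against 135 in the polyclonal library, and Snord16a had 253 and 333, against 89, with log2 ratios of 1.79 and 1.75. Snord57 had 79 and 242 counts, against 47 (log2 1.80 ± 0.47, edgeR adjusted p = 0.0272). Here the monoclonal libraries lay farther from each other than 35L33G lay from the polyclonal library, and the call was lost with DESeq2 and among transcripts with at least 200 counts.

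The class was not uniform. Snord68 was the exception to the direction, with 199 counts with 35L33G and 448 with 2J3, against 402 with the polyclonal antibody (log2 -0.28, not called), so the polyclonal value lay between the monoclonal ones. Snord47 had the smallest ratio above 0, with 300 and 303 counts, against 232 (log2 0.41, not called). The other 8 that were not called had log2 ratios from 0.60 to 2.04, the highest for Snord111, which had only 67, 38 and 13 counts.

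The H/ACA snoRNA Snora64, of a class that guides pseudouridylation, had 138 counts with 35L33G and 186 with 2J3, against 32 with the polyclonal antibody (log2 2.37 ± 0.50, edgeR adjusted p = 0.000904). It was the only H/ACA snoRNA in the table. Near-identical copies of small RNAs elsewhere in the genome can share reads, and the authors' treatment of such reads is not given in the sources used here.

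**Figure D2:**
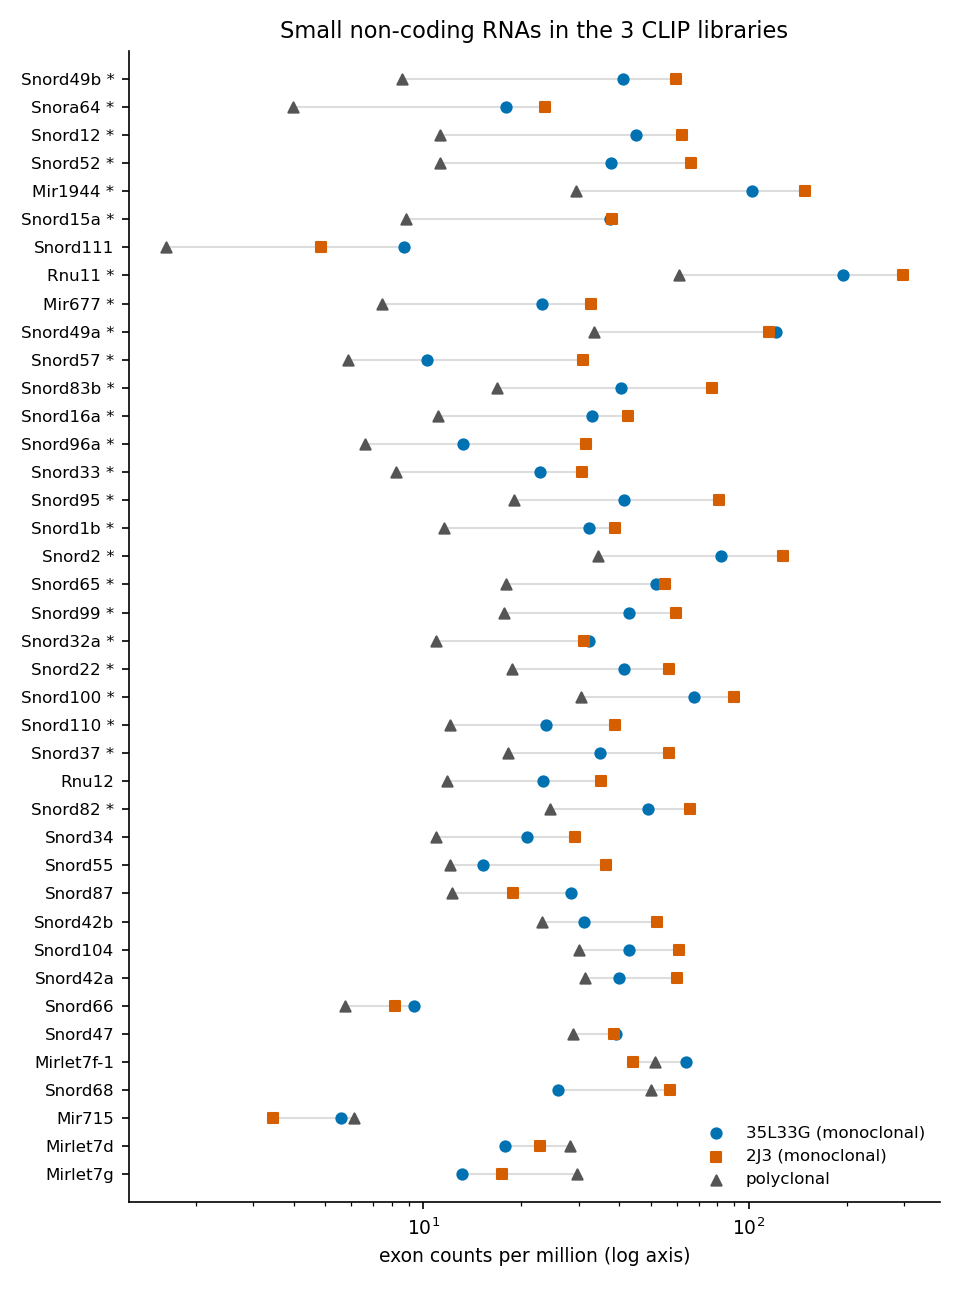
Exon counts scaled to library size (CPM, log axis) in the 35L33G, 2J3 and polyclonal libraries for the 40 snoRNAs, spliceosomal RNAs and microRNA precursors, sorted by fitted ratio; asterisks mark calls. For nearly all, the polyclonal triangle lies left of both monoclonal symbols; Snord68, Mir715 and the let-7 precursors are the exceptions.

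Most of these snoRNAs lie inside the span of a longer transcript, and most of those transcripts had a ratio near 0. By the authors' deposited mm9 loci, which give no strand, 27 of the 32 snoRNAs fell within another transcript of the table, in 21 different transcripts. The median log2 ratio of the 21 was 0.00, against 1.59 for the 27 snoRNAs, and 25 of 27 snoRNAs lay above the transcript around them. Of the 21 transcripts, 14 had a log2 ratio within 0.1 of 0. Among the 21, 2 were called higher (Gas5 and 1810032O08Rik) and 18 were not called. Over all transcripts 0.448% were called higher and 0.538% in either direction. Of 20 snoRNAs called higher that lay in such a transcript, 19 lay in one that was not called. With calls this rare over all transcripts, that count says little by itself. Snord95 and Snord96a lie in Gnb2l1, which encodes the ribosomal scaffold RACK1 and had 12253 and 13081 counts, against 12970 in the polyclonal library. Snord32a, Snord33 and Snord34 lie in Rpl13a, which had 2219 and 1712 counts, against 2107. Members within 1 such transcript share a locus.

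**Figure D3:**
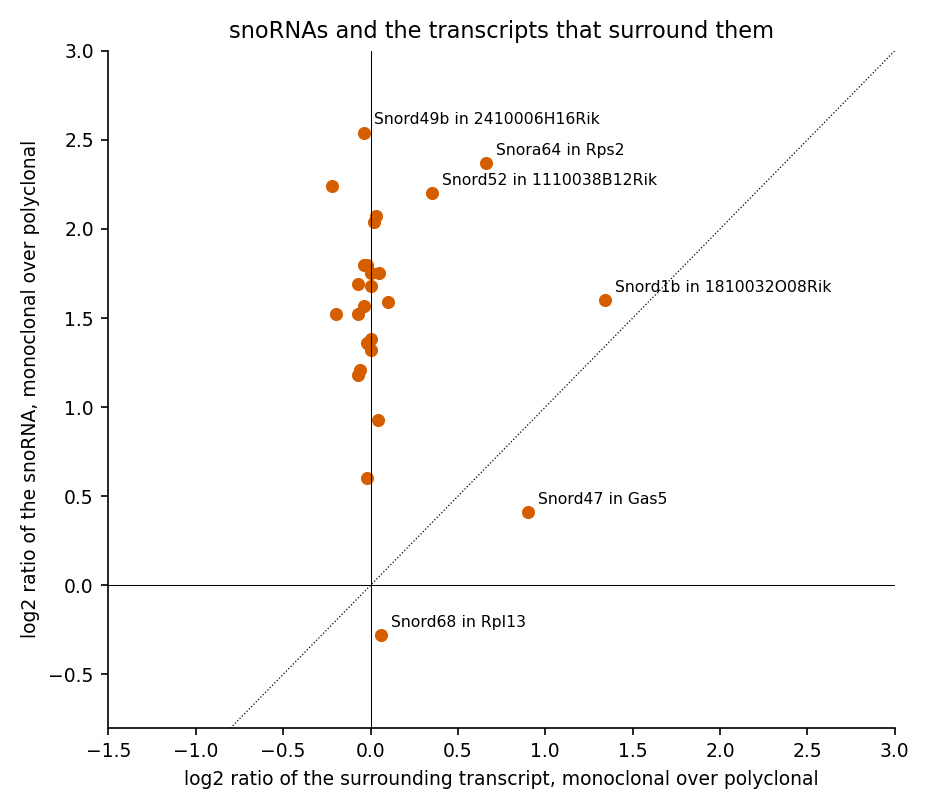
Fitted log2 ratio of each snoRNA (y axis) against that of the transcript whose span holds it (x axis), monoclonal over polyclonal, for 26 snoRNAs; the dotted line marks equal ratios. Most points stand in a column near 0 on the x axis, with Snord1b, Snord47, Snora64 and Snord52 to its right; all run from -0.28 to 2.54 on the y axis.

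Gas5, a long non-coding RNA whose introns encode snoRNAs, had 7969 counts with 35L33G and 11846 with 2J3, against 5428 with the polyclonal antibody (log2 0.90 ± 0.08, edgeR adjusted p = 9.11e-28). Its log2 ratio of 35L33G over 2J3 was -0.56, beside 0.60 for 35L33G over polyclonal. That spread between the monoclonal libraries carries no weight in its SE and p-value, and DESeq2 did not call Gas5. The deposited Gas5 model has 4 exons covering 2554 of the 3372 bases of its span, and Snord47 lies within that span. Whether reads of intronic snoRNAs enter its exon counts was not tested. The transcript 1810032O08Rik, which RefSeq shows holding Snord1a, Snord1b and Snord1c, had 217 and 277 counts, against 100 (log2 1.34, edgeR adjusted p = 0.0337). Other non-coding snoRNA host RNAs were not called. Snhg1 had 1363 and 1455 counts, against 1442, and Snhg6 had 1025 and 1110, against 1060.

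Of 15 snoRNA and microRNA host and long non-coding RNAs, 2 were called higher (Gas5 and Meg3), none lower, with a median log2 ratio of 0.21. Over all transcripts 0.448% were called higher and 0.0897% lower. Of 47 non-coding transcripts of 200 bases or more, 6 were called higher. Meg3, an imprinted long non-coding RNA, had 1069 and 1198 counts, against 751 (log2 0.63, edgeR adjusted p = 0.0337). Other nuclear long non-coding RNAs were not called. Malat1, a nuclear speckle RNA, had 21707 and 22822 counts, against 20328 (log2 0.16), and Neat1, the paraspeckle scaffold, had 379 and 423, against 270 (log2 0.60). DESeq2 called neither Gas5 nor Meg3.

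The minor spliceosome removes a rare class of introns with U11 and U12. U11 (Rnu11) had 1494 counts with 35L33G and 2331 with 2J3, against 491 with the polyclonal antibody (log2 1.99 ± 0.16, edgeR adjusted p = 1.99e-32). U12 (Rnu12) had 179 and 275 counts, against 95 (log2 1.29 ± 0.37, edgeR adjusted p = 0.0801, not called). Both monoclonal libraries were above the polyclonal one for each. Rmrp, the RNA of RNase MRP, which processes ribosomal RNA, had 433 and 380 counts, against 175 (log2 1.25 ± 0.28, edgeR adjusted p = 0.00306). The vault RNA Vaultrc5 had 771 and 668 counts, against 853 (log2 -0.21, not called). DESeq2 did not call Rnu11 (adjusted p = 0.0699) or Rmrp (adjusted p = 0.096).

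Precursors of let-7 did not follow the snoRNAs. None of the 3 was called, where 0.538% of all transcripts were. Mirlet7g had 101 counts with 35L33G and 137 with 2J3, against 238 with the polyclonal antibody (log2 -0.97 ± 0.36, edgeR adjusted p = 0.479). Mirlet7d had 137 and 179 counts, against 226 (log2 -0.48 ± 0.34, not called). Mirlet7f-1 had 493 and 345 counts, against 414 (log2 0.05 ± 0.24, not called), so its polyclonal count lay between the monoclonal ones. All carry the GGAG printed above. No difference was called with these libraries, which does not show that the antibodies recovered these precursors equally.

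Of the 3 other microRNA precursors, 2 were called higher, where 0.448% of all transcripts were. Mir1944 had 788 counts with 35L33G and 1165 with 2J3, against 236 with the polyclonal antibody (log2 2.08 ± 0.21, edgeR adjusted p = 2.43e-19). Mir677, whose hairpin above holds the C box letters, had 178 and 257 counts, against 60 (log2 1.89 ± 0.41, edgeR adjusted p = 0.00135). The transcript counted for Mir677 is 109 bases long, whereas the printed hairpin has 78. Mir677 lies within Atp5b, a subunit gene of ATP synthase, whose own counts were 26681 and 29605, against 28063. DESeq2 called Mir1944 but not Mir677 (adjusted p = 0.0699). Mir715 had only 43, 27 and 49 counts (log2 -0.45, not called).

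The non-coding transcript LOC100303645, which RefSeq shows holding the miR-291 to miR-295 cluster of embryonic stem cells, had 699 counts with 35L33G and 574 with 2J3, against 198 with the polyclonal antibody (log2 1.72 ± 0.25, edgeR adjusted p = 6.30e-09). Mir17hg, host of a growth-promoting microRNA cluster, had 144 and 149 counts, against 54 (log2 1.47 ± 0.47, edgeR adjusted p = 0.237, not called). The non-coding transcript 1810058I24Rik had 637 and 689 counts, against 249 (log2 1.45 ± 0.24, edgeR adjusted p = 8.60e-07).

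The calls lay mostly among the short non-coding transcripts. Of 40 under 200 bases, 25 were called higher with a median log2 ratio of 1.52. Of 47 of 200 bases or more, 6 were called higher and 1 lower, with a median of 0.21. Among coding transcripts of 200 to 500 bases, the shortest in the table, the median was 0.09. None of these 58 was called, where 0.538% of all transcripts were.

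Coding transcripts showed few differences. Zfp414, a zinc finger gene, had 37 counts with 35L33G and 29 with 2J3, against 0 with the polyclonal antibody, which makes it at least 11.3-fold higher in the monoclonal libraries, taking 3 counts as the limit that a count of 0 allows in the polyclonal library. Its edgeR adjusted p was 0.0272, and DESeq2 did not call it. Gm13242 had 217 and 191 counts, against 76 (log2 1.46, edgeR adjusted p = 0.0491). Bag6, a chaperone for membrane and misfolded proteins, had 1118 and 804 counts, against 604 (log2 0.70), and Ctnnb1, which encodes beta-catenin, had 36217 and 43704, against 35286 (log2 0.21 ± 0.05, edgeR adjusted p = 0.00116). For Bag6 and Ctnnb1, the monoclonal libraries lay farther from each other than the nearer lay from the polyclonal one.

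Among the 7 transcripts called lower, the largest difference was for Gm5801, a transcribed pseudogene at 56629129 to 56630317 on chromosome 14 (mm9). It had 13 counts with 35L33G and 24 with 2J3, against 323 with the polyclonal antibody (log2 -4.09 ± 0.45, edgeR adjusted p = 1.37e-16), and it was the only lower call that DESeq2 also made. A pseudogene can share reads with its parent gene. Lsm5, a subunit of the RNA-binding Lsm ring, had 73 and 129 counts, against 282 (log2 -1.45, edgeR adjusted p = 0.0112).

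Further lower calls were small or rested on few counts. Dbf4, a regulator of replication origins, had 2338 and 2253 counts, against 3142 (log2 -0.42, edgeR adjusted p = 0.0233). Surf4, a cargo receptor of the endoplasmic reticulum, had 3753 and 3585 counts, against 4885 (log2 -0.38, edgeR adjusted p = 0.0120). Scd2, a fatty acid desaturase, had 30429 and 28742 counts, against 34979 (log2 -0.21, edgeR adjusted p = 0.00396). BC096441 had 13 and 48 counts, against 135, its monoclonal libraries farther apart than 2J3 was from the polyclonal one. Fitted on coding-sequence counts alone, Surf4 had a log2 ratio of 0.10 and Scd2 of 0.30, neither called. With non-coding transcripts left out of the fit, an alternative chosen after seeing the data, Ctnnb1 and Scd2 were among the coding transcripts still called.

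The mRNAs of the let-7 pathway and of LIN28 itself were not called either. Lin28a had 2884 counts with 35L33G and 3387 with 2J3, against 3255 with the polyclonal antibody (log2 -0.02 ± 0.10, not called). Lin28b, its paralogue, had 1465 and 1395 counts, against 1384 (log2 0.08, not called). None of 17 LIN28 and let-7 processing proteins was called, with a median log2 ratio of -0.06, and none of 27 let-7 pathway targets, with a median of 0.01. Over all transcripts only 0.538% were called, so these counts of 0 say little. In the first list, Zcchc6, a terminal uridyltransferase of let-7 precursors, had 286 and 292 counts, against 380 (log2 -0.36), and Tarbp2, a Dicer partner, had 43 and 39, against 17 (log2 1.30), neither called.

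Other gene groups had medians close to 0 as well. Over all transcripts only 0.538% were called, so the absence of a call in a list says little about its members. Replication-dependent histones had a median log2 ratio of 0.15 with 0 of 26 called, and these genes have near-identical copies that can share reads. Cytosolic ribosomal protein mRNAs had a median of 0.01 over 54 transcripts. Endoplasmic reticulum chaperones had a median of 0.02 with 0 of 32 called, solute carriers 0.04 with 0 of 132, and pluripotency factors -0.01 with 0 of 32. Among 147 zinc finger proteins the median was -0.04 and Zfp414 the single call. Leaving aside the cell type markers above, 9 further lists of mRNAs had medians from -0.04 to 0.03 and no call.

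**Figure D4:**
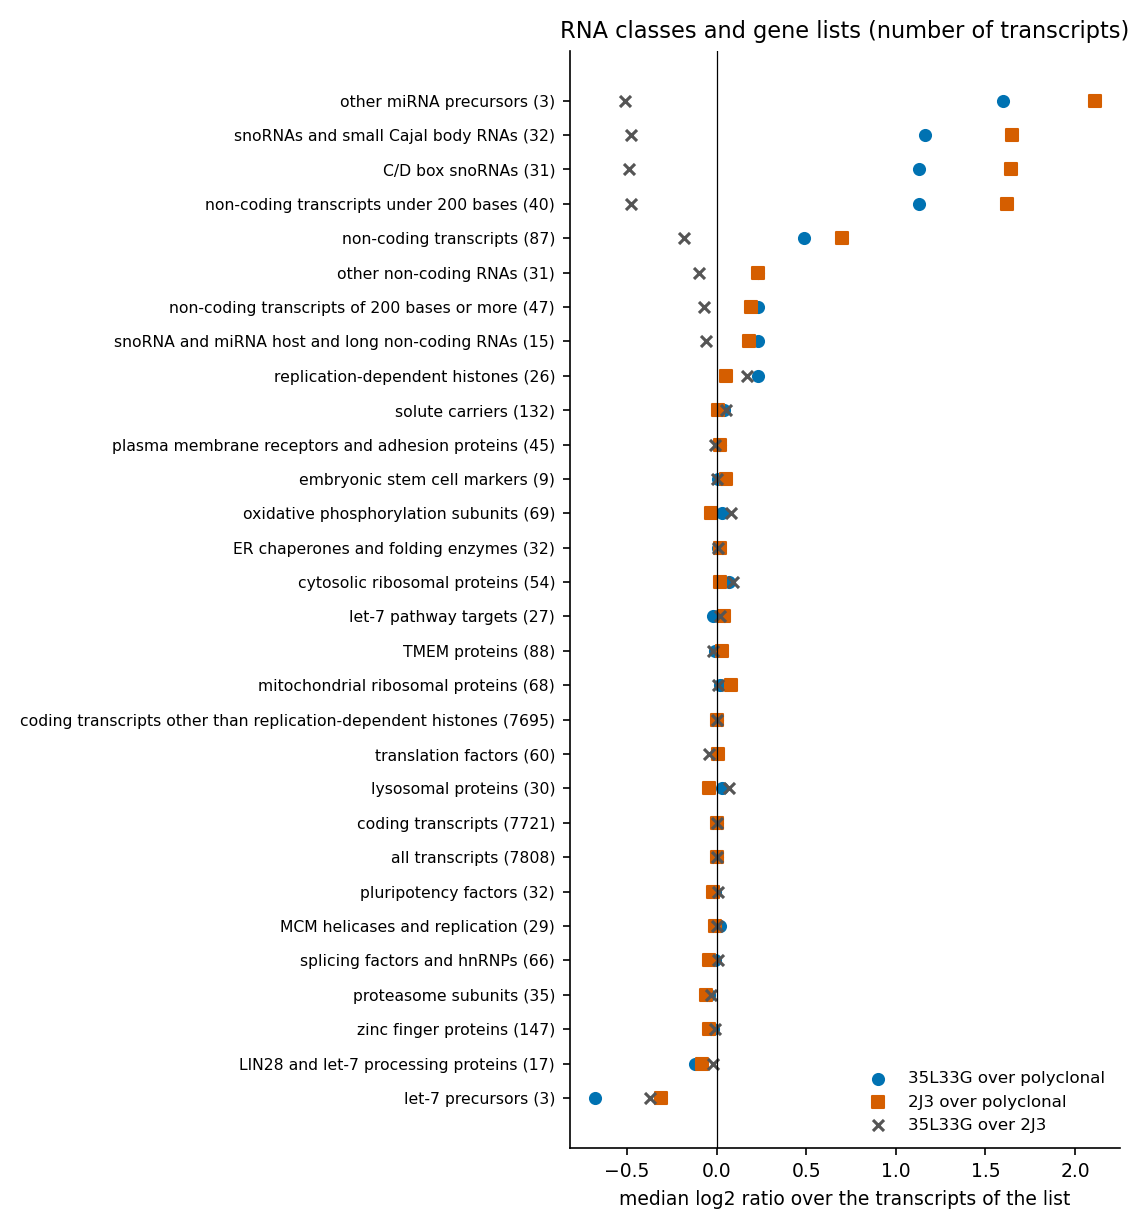
Median log2 ratio of each RNA class or gene list for 35L33G over polyclonal, 2J3 over polyclonal and 35L33G over 2J3, with the number of transcripts in parentheses. The C/D box snoRNAs lie at 1.13 for 35L33G and 1.64 for 2J3, while the mRNA lists cluster at 0.

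The spread between antibodies did not set the polyclonal library apart for most transcripts. Counts correlated across transcripts at Spearman's rho of 0.978 for 35L33G and polyclonal, 0.978 for 2J3 and polyclonal, and 0.980 for the monoclonal pair, over 7808 transcripts that share libraries and expression levels. Between 1000 and 3000 summed counts (2550 transcripts), the robust SD of the log2 ratio was 0.241 and 0.237 for the ratios to polyclonal and 0.239 for the monoclonal pair, against 0.087 from counting error alone. The polyclonal library lay farther from its nearest monoclonal library than the monoclonal libraries lay from each other for 34.0% of transcripts. For the 35 transcripts called higher, that held for 31, where the rule for a call favours it.

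**Figure D5:**
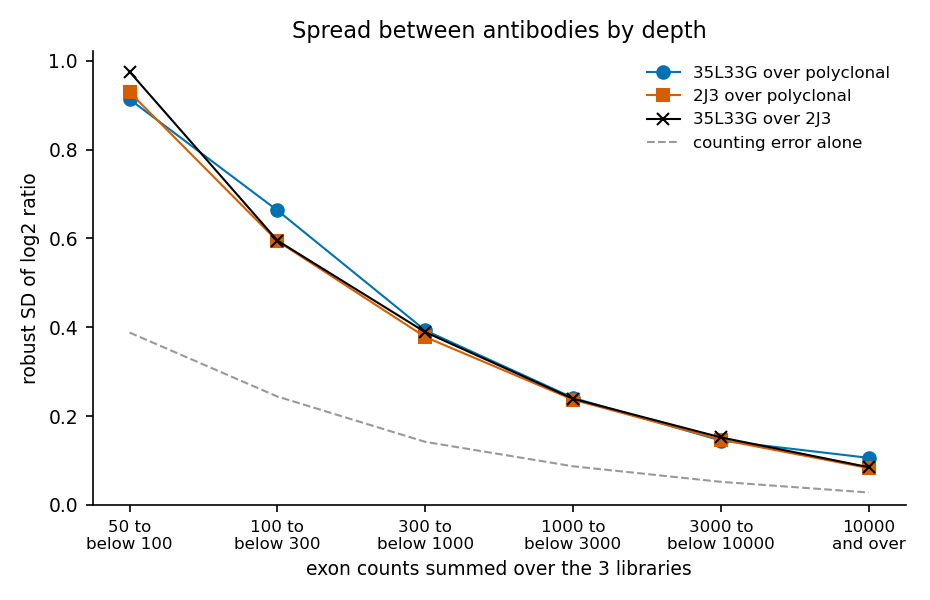
Robust SD of the log2 ratio between each pair of libraries (y axis) by exon counts summed over the 3 libraries (x axis), beside the SD from counting error alone. The 3 lines run together from about 0.9 in the lowest bin to about 0.1 in the highest, above the dashed line throughout.

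The monoclonal antibodies also differed from each other on the small RNAs. With 1 library each, there is no test, and intervals cover counting error only. The C/D box snoRNAs had a median log2 ratio of 35L33G over 2J3 of -0.49, against -0.00 over all transcripts, and 25 of 31 were lower with 35L33G. By median, they stood 1.13 above the polyclonal library with 35L33G and 1.64 above it with 2J3. At least 2-fold lower with 35L33G were 4 of the 31, against 0.692% of all transcripts, and none was at least 2-fold higher. Rnu11, at 1494 counts with 35L33G and 2331 with 2J3, had a log2 ratio of -0.63 (95% Clopper-Pearson interval -0.72 to -0.53), and Gas5 one of -0.56 (-0.60 to -0.51). Rmrp had 433 and 380 counts (log2 0.205, interval 0.0 to 0.41), an interval that reaches 0. Of the let-7 precursors, Mirlet7f-1 was higher with 35L33G (log2 0.53, interval 0.33 to 0.73), and 2 were lower.

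Over all transcripts, 88 were at least 2-fold higher with 35L33G (1.13%) and 54 at least 2-fold lower (0.692%). Among those with at least 200 summed counts, Cecr5 had 171 counts with 35L33G and 35 with 2J3 (log2 2.29, interval 1.77 to 2.87), with 68 in the polyclonal library between them. Map1lc3b, which encodes the autophagosome protein LC3B, had 142 and 34 counts (log2 2.06, interval 1.53 to 2.66), with 30 in the polyclonal library. Lower with 35L33G were Coq10b, a coenzyme Q-binding protein, with 30 and 135 counts (log2 -2.13, interval -2.78 to -1.57), and Cmc1, a factor of cytochrome c oxidase assembly, with 59 and 206 (log2 -1.78, interval -2.23 to -1.36). Apart from Snord57, the 8 with the largest ratio in each direction among transcripts with at least 200 summed counts were mRNAs, with at most 206 counts in either library.

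The position of reads along coding transcripts was nearly the same. The coding sequence held 67.2% of exon counts with 35L33G and 67.1% with 2J3, against 66.7% with the polyclonal antibody, and the 3′ UTR held 31.8% and 32.0%, against 32.4%. Per transcript, the log2 balance of 3′ UTR over coding counts had a robust SD of 0.42 for 35L33G against polyclonal, 0.42 for 2J3 against polyclonal and 0.41 for the monoclonal pair, over 4194 transcripts. The balance was at least 2-fold higher in 95 transcripts and lower in 105 for 35L33G against 2J3. Against polyclonal, these counts were 60 and 105 for 35L33G, and 78 and 111 for 2J3. Both monoclonal libraries moved at least 2-fold the same way from the polyclonal one, which both comparisons share, in 37 of the 4194 transcripts. One of them was Ybx1, which encodes a cold shock domain protein, as LIN28A is, and which was picked out after its values were seen: 238 and 189 3′ UTR counts, against 91 in the polyclonal library, at coding counts of 1453 and 1322, against 1481.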

How the data were processed

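The authors deposited whole-number counts of reads per RefSeq transcript, with exon, coding-sequence and 3′ UTR columns. Per the submitters' processing notes, the tools were GSNAP and bedtools and the genome build mm9, with no roles given. Tool versions, the counting rule, its strand setting and how the 7820 transcripts were chosen are not given in the sources used. Per the labels, RNA was purified by phenol extraction after immunoprecipitation. 19 other columns of per-sample values of the CLIP table were not used.

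From the counts, edgeR 4.0.16 (R 4.3.3) fitted the 2 monoclonal libraries against the polyclonal one (TMM factors of 1.007, 0.9991 and 0.994, quasi-likelihood test, Benjamini-Hochberg adjustment over 7808 transcripts, threshold 0.05). The fit has 1 residual degree of freedom per transcript, and the prior degrees of freedom were infinite, so a transcript's own spread carries no weight. Single-library log2 ratios use TMM scaling and a pseudocount of 0.5 counts. Intervals are exact Clopper-Pearson at 95% and, like limits for a count of 0, cover counting error only. DESeq2 1.42.0 was an alternative. The monoclonal over polyclonal test was run on simulated data for 7808 transcripts. It recovered 35.8% of 67 transcripts changed 1.5-fold, 74.6% of 67 changed 2-fold and 98.5% of 66 changed 4-fold. Of its calls, 6.71% were unchanged. The simulation drew all libraries, the polyclonal one included, from the spread that the test itself fitted. These shares therefore do not measure the error of the calls reported here.

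The members and gene lists were chosen with earlier results of these data known. Named transcripts were the 12 largest called per direction with 200 or more counts and both monoclonal libraries on 1 side (filled with uncalled ones), the 8 largest per direction between the monoclonal libraries, up to 2 highest and lowest per list, and let-7 precursors, Lin28a and Lin28b; not all are printed, and 1 called transcript is not reported here. The other called transcripts, the transcripts around snoRNAs, Snhg1, Snhg6, Malat1, Neat1 and the other C/D box snoRNAs were named after their values were seen. Mir17hg was moved from the precursors to the host RNAs by annotation, not by value. Of 7820 identifiers, 7744 were in the RefSeq gene table.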

Additional observations from a re-analysis of the deposited data

How the results depend on the processing

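The counts of calls depended on the test and the filter, and the direction of the C/D box snoRNAs did not in the alternatives run. Against 35 transcripts called higher and 7 lower, DESeq2 called 15 and 1, a minimum of 200 summed counts left 21 and 1, coding-sequence counts gave 1 and 0, and 3′ UTR counts 0 and 0 (non-coding transcripts have neither region; 373 3′ UTR tests had an unadjusted p under 0.05). None of the main calls that could be tested on these regions was kept, of 9 on coding-sequence counts and 8 on 3′ UTR counts. With non-coding transcripts left out, chosen after seeing the data, the counts were 1 and 2. Of the C/D box snoRNAs, DESeq2 called 11 against 21, and of all non-coding transcripts 15 higher against 31. Total counts, DESeq2 size factors, a minimum of 20 counts, no filter and robust moderation kept all 42 calls, and leaving out histones, ribosomal proteins and repeated symbols kept all 41 tested. Fitted on coding-sequence counts, the direction turned for Surf4 (0.10) and Scd2 (0.30); the cause was not tested.

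With a minimum of 200 counts, both monoclonal libraries lay 2-fold or more above the polyclonal one for 39 transcripts and below it for 7, against 63 and 11, and 48 and 28 differed 2-fold between 35L33G and 2J3, against 88 and 54; fewer transcripts are tested there. With either monoclonal library alone, 121 to 126 transcripts stood 2-fold or more above the polyclonal library and 51 to 63 below it. The median log2 ratio of the C/D box snoRNAs, and of non-coding transcripts under 200 bases, was 1.13 without 2J3, and 1.64 and 1.62 without 35L33G.

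No paired analysis was possible because the polyclonal antibody has 1 library.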
